A study of Mus musculus with 419 samples.

Results

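The 10 genes described here encode the proteins that carry a mammalian cell through G1 and into S phase: the D-type cyclins Ccnd1, Ccnd2 and Ccnd3, the E-type cyclins Ccne1 and Ccne2, the kinases Cdk4, Cdk6 and Cdk2, the pocket protein Rb1 and the kinase inhibitor Cdkn1b (p27). The rule that chose them lists them by name and uses no measured value, though earlier results of these data were known when it was made. All of their transcript rows in the 129 and CAST tables were read over 419 cells. The genes have 70 rows, of which 62 held a value above 0, and all 10 passed a filter that 11002 autosomal genes passed (a pooled value of at least 1000 and a value above 0 in at least 10% of cells). They are 10 of 48087 genes in the tables.

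In G1, D-type cyclins bind Cdk4 and Cdk6, and E-type cyclins bind Cdk2. Both kinds of complex phosphorylate Rb1, which otherwise holds E2F transcription factors in check, and E2F factors switch on genes of DNA replication. Cdkn1b binds and restrains cyclin E with Cdk2, and is itself marked for destruction before S phase. Mouse embryonic stem cells are known for a short G1 phase, for high cyclin E with Cdk2 activity and for little inhibitor.

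The cells were 1 group: single mouse embryonic stem cells in G1, from the female line F1-21.6, a hybrid with a 129Sv and a Cast/EiJ genome, grown on laminin-511 with serum and leukaemia inhibitory factor and without feeder cells. RamDA-seq, a method that covers whole transcripts of total RNA, was applied to each, and the comparison within each cell is of the 129 allele with the CAST allele. Separate cultures are not named in the labels, and all 419 cells therefore count as 1 sample. No test across cells was made, and errors are SDs over 5 sequencing lanes (n = 5). Each lane holds different cells, so these SDs cover differences between lanes and between cells, not between cultures. Values are allele counts that the authors had scaled and rounded, with 698363 to 1477656 per cell over both alleles (median 925852). Their depth in reads is unknown.

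All 12 markers of pluripotent cells had values, and their sum had a median of 3419 per cell over 417 cells (range 160 to 6077). Set apart from these were 2 cells, singled out after their Ccnd2 values were seen, in which 7 and 6 of the 12 pluripotency markers were above 0 and the sums were 233 and 19. Their sums over 7 fibroblast markers were 2863 and 2140, most of it Col1a1 (2505 and 1935), against 0 to 643 in the other cells (median 4). Of the 7 markers 4 and 5 were above 0, and Dcn and Lum were 0 in both cells. Sums in the 2 cells over markers of primitive endoderm (35 and 7), trophectoderm (17 and 22) and neural cells (670 and 195) lay within the ranges of the other cells, 0 to 123, 0 to 950 and up to 895. Medians of the other cells were 9, 23 and 36, so both neural sums lay well above the median. Of the neural markers, Nes had 321 and 129 and Tubb3 had 349 and 66. Both cells were sequenced in lane 2. Values that rest on them are also given without them.

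The order of levels put cyclin E1 first. Levels of different genes were compared per kb of spliced transcript, on the row with most value of each gene. Ccne1 had 127 ± 3.72 per kb, Ccnd3 90.6 ± 1.48, Cdk4 78.8 ± 4.23, Ccnd1 29.9 ± 1.81 and Cdk2 14.1 ± 0.994 (SD over lanes, n = 5). The lower members were Ccne2 at 6.86 ± 0.858, Cdk6 at 5.73 ± 0.840, Rb1 at 3.17 ± 0.199, Cdkn1b at 1.90 ± 0.102 and Ccnd2 at 0.721 ± 0.838 per kb. Without the 2 cells Ccnd2 had 0.321 per kb. The lane values of Ccne2 and Cdk6 overlapped, as did those of Cdkn1b and Ccnd2, so the order within these pairs was within the spread. For Cdkn1b and Ccnd2 the overlap came through lane 2, which holds the 2 cells. Without these cells Cdkn1b had 1.84 per kb, against 0.321 for Ccnd2. Among 11002 genes, Ccne1, Ccnd3 and Cdk4 stood at percentiles 97.4, 96.4 and 95.8 of level per kb, Cdkn1b stood at 18.6 and Ccnd2 at 2.65. The order at the top depended on the rows used: with the per-kb levels of all rows of a gene added, Cdk4 came first at 291.2, ahead of Ccnd3 at 158.1, Ccne1 at 139.7 and Ccnd1 at 84.5.

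**Figure D1:**
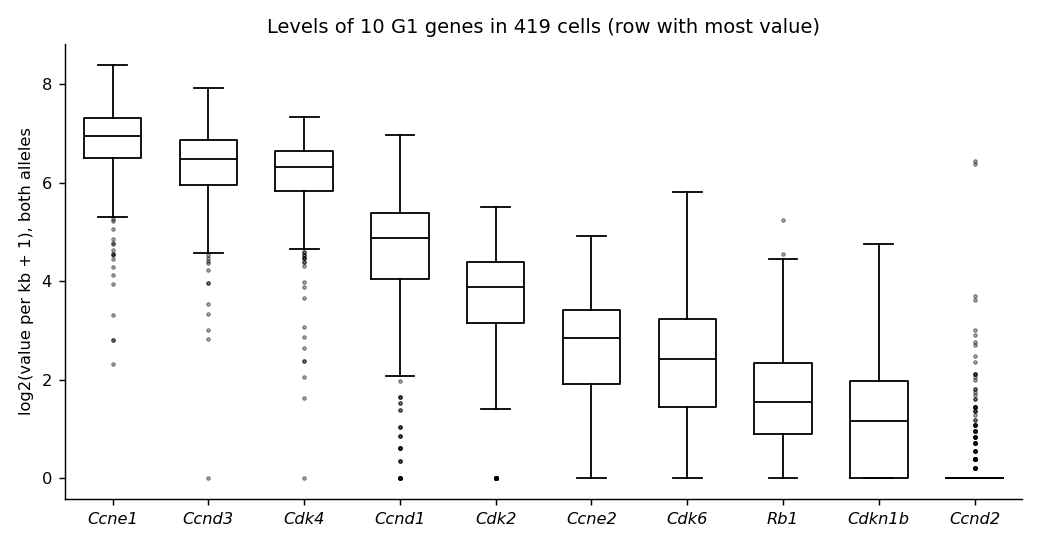
Level of each gene in 419 cells as log2(value per kb + 1), both alleles summed, on the row with most value; boxes show quartiles and median, whiskers reach 1.5 interquartile ranges, and points are cells beyond them. Ccne1, Ccnd3 and Cdk4 lie highest, and Ccnd2 has a median of 0 with 2 cells far above the rest.

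To show the DNA before the start of the highest genes, 4 promoter windows are printed, those of the 4 genes with the highest levels per kb among those with an entry. They come from the RefSeq promoter table (GRCm38.p6), which had entries for 6 of the 10 genes, Ccnd3 with a pair of starts. Each window covers 200 bases, from 250 to 51 bases before the annotated start, 5′ to 3′ on the strand of the gene. Ccne1 is at chr7:38107541-38107740 on the minus strand, the downstream Ccnd3 start, next to that of the main Ccnd3 row, at chr17:47593217-47593416 on the plus strand, Cdk2 at chr10:128705102-128705301 on the minus strand and Cdk4 at chr10:127063285-127063484 on the plus strand. Capitals mark a core of the E2F binding motif, searched on both strands in 4 forms. The first form was TTCCCGC. Another form that was searched was TTCGCGC. A further form was searched as TTGCCGC. The last of the forms was TTGGCGC.
Ccne1: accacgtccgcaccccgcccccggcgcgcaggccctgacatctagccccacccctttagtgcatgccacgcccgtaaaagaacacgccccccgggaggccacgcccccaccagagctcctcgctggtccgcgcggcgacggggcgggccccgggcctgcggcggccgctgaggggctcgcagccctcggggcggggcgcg
Ccnd3 downstream start: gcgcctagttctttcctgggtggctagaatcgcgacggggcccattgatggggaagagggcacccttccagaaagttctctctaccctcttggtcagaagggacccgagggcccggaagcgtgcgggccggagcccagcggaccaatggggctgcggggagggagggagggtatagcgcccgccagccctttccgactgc
Cdk2: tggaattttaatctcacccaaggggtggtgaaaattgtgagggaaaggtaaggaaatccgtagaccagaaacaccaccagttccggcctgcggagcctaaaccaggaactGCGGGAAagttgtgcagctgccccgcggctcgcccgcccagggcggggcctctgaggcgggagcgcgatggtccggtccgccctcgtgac
Cdk4: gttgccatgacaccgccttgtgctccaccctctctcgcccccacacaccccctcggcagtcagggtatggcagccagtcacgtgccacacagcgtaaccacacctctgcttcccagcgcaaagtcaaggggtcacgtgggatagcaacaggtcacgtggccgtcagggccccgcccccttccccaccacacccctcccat
Of the 7 windows of these genes, 1 held such a core: Cdk2 has TTCCCGC on the strand opposite to the gene, starting 140 bases before its start. Over all promoters of the table, 1981 of 32851 windows (6.03%) held one. A match is a description of the letters, and a window without one says nothing of E2F.

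The D-type cyclins differed from each other in level and in the way they varied between cells. Coordinates of rows are from GENCODE vM21 (mm10), and every main row is a protein-coding transcript. Ccnd3 (ENSMUST00000182209, chr17:47593470-47599689, 1977 bases) ranged from 0 to 478 per cell with a median of 176, and it was above 0 in 418 of 419 cells. Ccnd1 (ENSMUST00000093962, chr7:144929931-144939869, 3740 bases) ranged from 0 to 468 with a median of 106, and 98.1% of cells had a value. Ccnd2 (ENSMUST00000000188, chr6:127125162-127151060, 6330 bases) had a median of 0 and was above 0 in 85 cells, 20.3% (exact 95% interval 16.5% to 24.5%, which covers counting error only).

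Most of the Ccnd2 value came from the 2 cells described above. They held 541 and 523, against 0 to 76 in the other 417 cells, and made up 55.6% of the Ccnd2 sum. Both alleles were read in each: 211 from 129 and 330 from CAST in one, and 296 from 129 and 227 from CAST in the other. The same cells had 521 and 632 of Cdk6, ranks 2 and 1 of 419, and 98 and 114 of Cdkn2b, the INK4 inhibitor p15, ranks 3 and 2. Their Ccne1 values of 56 and 12 were among the 15 lowest, at ranks 405 and 417 from the top. Cdkn1a, the p53 target p21, had 101 and 143 in them, ranks 9 and 5, against a median of 8 in the other cells. The 2 cells shared high Ccnd2 and Cdk6 but not Cdkn1b, which had 62 in one (rank 1) and 3 in the other. The part of the fibroblast markers in these values was not tested.

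Cyclin E1 was present in every cell. Ccne1 (ENSMUST00000108023, chr7:38097984-38107534, 2000 bases) ranged from 8 to 673 per cell, and its upper quartile was 316.5. Per kb its median over cells was 123.5. It held 97.6% of the gene's value over all rows. Ccne2 (ENSMUST00000108324, chr4:11191730-11204682, 2908 bases) ranged from 0 to 85 with a median of 18, and 390 cells had a value. The level per kb of Ccne1 stood far above that of Ccne2, by more than the lane SDs.

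Among the kinases, the D-cyclin partner Cdk4 was the most abundant per kb. Cdk4-205 (ENSMUST00000133115, chr10:127063604-127066177, 950 bases) ranged from 0 to 153 with a median of 75, and 418 cells had a value. Cdk6 (ENSMUST00000165117, chr5:3343893-3531008, 11525 bases), the other partner of the D-type cyclins, ranged from 0 to 632 with a median of 50. Cdk2 (ENSMUST00000026416, chr10:128697944-128705030, 2406 bases), the partner of cyclin E, ranged from 0 to 107 with a median of 33. It was above 0 in 90.2% of cells. This row held 63.6% of the gene's value, and a second row held the rest.

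The restraining members lay below the median level of all genes, 5.92 per kb. Rb1 (ENSMUST00000022701, chr14:73195502-73325822, 4656 bases) ranged from 0 to 173 with a median of 9, and 92.4% of cells had a value. Cdkn1b (ENSMUST00000003115, chr6:134920401-134925513, 2393 bases) ranged from 0 to 62 with a median of 3, and 274 cells had a value, 65.4% (exact 95% interval 60.6% to 69.9%). Its row held 44.3% of the gene's value, and 2 other rows held the rest.

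The comparison of the alleles asked how much of each gene was read from the 129 and from the CAST chromosome. Cdk4 was the 1 gene of the 10 whose allele means differed by at least 2-fold on the main row: Cdk4-205 averaged 67.5 from 129 and 7.37 from CAST, a ratio of 9.16 and a 129 share of 90.2% ± 0.684 (SD over lanes, n = 5). Among 10465 autosomal genes with allele information, 4.57% were past 2-fold toward 129, 6.42% toward CAST and 11.0% in either direction. A count of 1 in 10 is near that background.

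Ccnd1 stood just outside the limit on the CAST side. Its main row averaged 37.3 from 129 and 74.4 from CAST, a 129 share of 33.4% ± 1.63, where a 2-fold ratio is 33.3%. Leaving out lane 2 gave 32.9% and leaving out lane 3 gave 33.0%, which put it past the limit, and with all rows summed it was 37.4%. The other 8 genes lay between 40% and 60% 129. Ccne1 was at 49.2% ± 1.84, Ccnd3 at 48.9% ± 1.58, Cdk2 at 53.4% ± 0.969 and Cdk6 at 45.6% ± 4.00. Ccne2 was at 52.6% ± 3.93, Rb1 at 52.0% ± 2.38 and Cdkn1b at 53.5% ± 4.53. Ccnd2 was at 59.5% ± 14.1, at 74.3% without the 2 cells that hold most of it and at 77.5% without their lane. Without those 2 cells Ccnd1 was at 33.28%, and 3 genes, Cdk4, Ccnd2 and Ccnd1, were past the limit. The median share of the 10 genes was 52.3%, against 50.0% over all 10465.

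**Figure D2:**
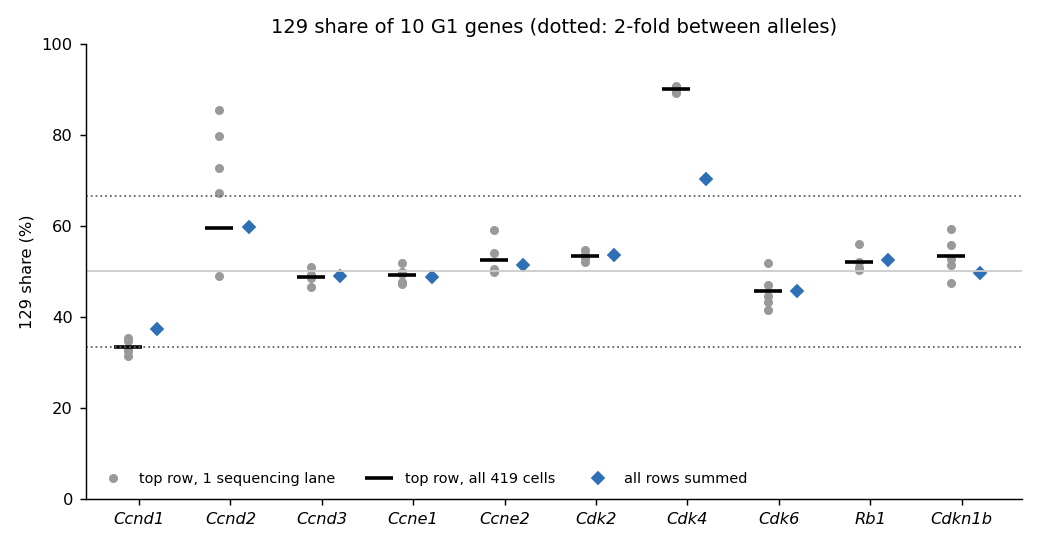
129 share in percent of each gene: grey points are the 5 sequencing lanes and black bars all 419 cells, both on the row with most value, and diamonds are all rows summed; dotted lines mark 2-fold between alleles. Cdk4 lies at 90.2% on its main row and 70.3% with all rows, Ccnd1 lies near the lower line, and the lanes of Ccnd2 spread most.

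The Cdk4 share differed between rows of the gene. Cdk4-205 starts 70 bases after the first annotated start of the gene and ends 1743 bases before its last end. Of other rows that start near the same place, Cdk4-206 and Cdk4-208 were at 93.8% and 84.2% 129, and Cdk4-207, with a retained intron, was at 51.8% ± 2.25. The row over the full gene averaged 36.8 from 129 and 18.2 from CAST, a share of 66.9% ± 2.82. Cdk4-209, a 468-base row with a retained intron, ends 685 bases before the last end. It averaged 20.2 from 129 and 26.5 from CAST, 43.2% ± 1.90. With all 9 rows summed the share was 70.3% ± 0.858, a ratio of 2.37, so the gene stayed past 2-fold toward 129.

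Part of the full-length row cannot be assigned to Cdk4 alone. Of the 31-base words of the full-length Cdk4 row, 30.2% also occur in Tspan31 on the opposite strand, a gene whose own rows averaged 27.6 per cell at 56.4% 129. Cdk4-205 shares 2.39% of its words with other genes. The overlap of Cdk4 with Tspan31 covers 641 bases. Cdk4-209, Cdk4-208, Cdk4-205 and Cdk4-206 end 685, 918, 1743 and 2640 bases before the last end of Cdk4, short of that overlap. Cdk4-207 ends 623 bases before the last end, just inside it. The counting is not stated to use strand, so reads over the shared end cannot be told apart, and the sources used here do not say how the authors divided reads between overlapping rows.

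**Figure D3:**
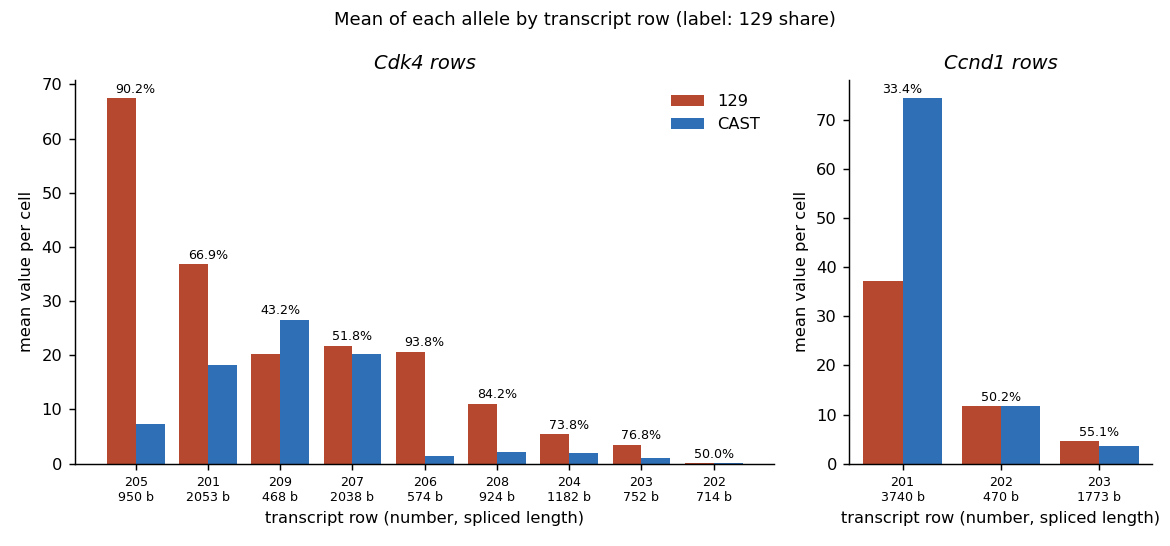
Mean value per cell of the 129 allele (red) and the CAST allele (blue) for each transcript row of Cdk4 and Ccnd1 with a value above 0; the label is the 129 share. Cdk4-205, Cdk4-206 and Cdk4-208 are mostly 129, while Cdk4-209 and Cdk4-207 are near or below equality, and in Ccnd1 the CAST excess is in the main row.

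In Ccnd1, the CAST excess was seen on the main row. A short row of 470 bases with a retained intron was at 50.2%, and its alleles lay within 10% of their sum of each other in 97.7% of its cells. A main row of that kind would not count as carrying allele information, but the sum over all rows includes it, and the summed Ccnd1 share is 34.8% without it. Ccnd1-203 was at 55.1% ± 7.20. The main row shares 28.1% of its words with LTO1 on the opposite strand, whose rows averaged 7.73 per cell at 46.1% 129. Ccnd3-205 shares 16.9% with Bysl and 15.1% with the pseudogene Ccnd3-ps, and the main Ccne2 row shares 19.2% with Ints8. Bysl averaged 67.2 per cell and Ints8 62.6, against 179.2 for Ccnd3-205 and 20.0 for the main Ccne2 row. The part of these genes in the Ccnd3 and Ccne2 values was not tested, and the share of words does not limit it. Ccne1, Cdk2 and Cdkn1b shared no words.

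**Figure D4:**
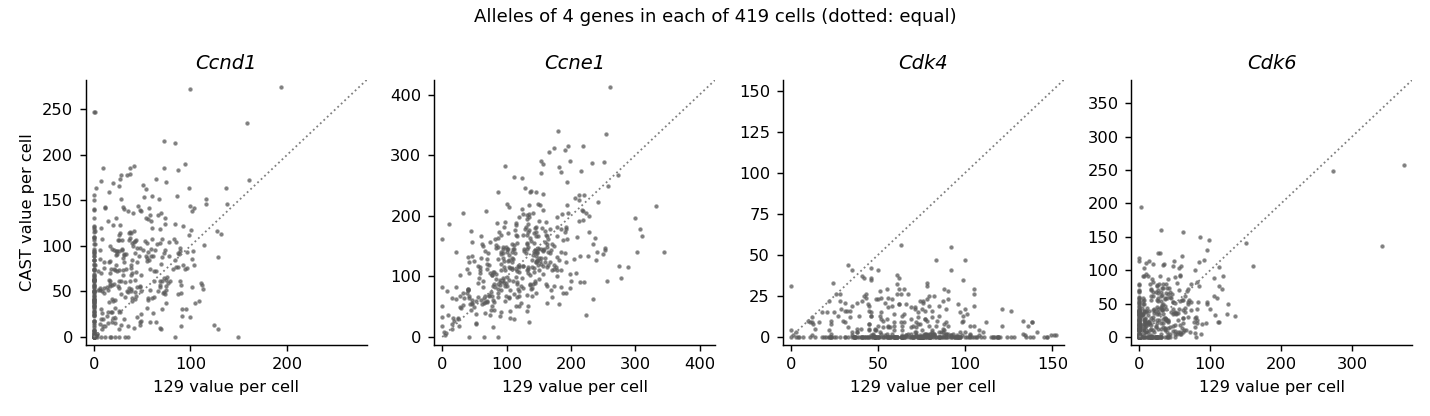
129 value (x axis) against CAST value (y axis) of 4 genes in each of 419 cells, main rows, deposited units; the dotted line marks equality. Ccne1 cells spread along the line, Ccnd1 cells lie mostly above it, Cdk4 cells lie along the 129 axis, and 2 of the Cdk6 cells far out on the diagonal are those with most Ccnd2.

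The next measurement asked how far the alleles varied separately and together. Each allele was first scaled to its own mean. Intrinsic noise is then the squared difference of the alleles, averaged and divided by 2, shared noise is the mean of their product minus 1, and the residual is the distance of log2 intrinsic noise from genes of like mean. Residuals were defined for 7 of the 10 genes, those whose alleles each averaged 5 or more and whose 129 share was 10% to 90%, and over 6028 such genes they had quartiles of -0.44 and 0.41.

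Ccne1 had the lowest intrinsic noise of the 10 main rows. It was 0.129 with a shared noise of 0.123, its residual was -0.14, and the 129 and CAST values of a cell were related (Spearman rho 0.50 over 419 cells, which share library and scaling). In all, 1.91% of its cells had a value from a single allele. Ccne2 and Cdk2, with residuals of -0.10 and -0.09, were also close to genes of like mean.

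Ccnd3 had the highest residual, 1.21, where the 95th percentile of all genes was 1.04. Its intrinsic noise was 0.486, against a shared noise of -0.05 and a rho of -0.11 between alleles. With all rows summed the intrinsic noise was 0.334. Cdk6 and Ccnd1 followed with residuals of 0.70 and 0.67. Their shared noise was 0.660 and 0.212, against a median of -0.03 over all genes, and rho between their alleles was 0.37 and 0.30. Without the 2 cells of high Ccnd2, the shared noise of Cdk6 was 0.457.

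Rb1 had a shared noise of 0.923, where the 95th percentile of all genes was 0.805, beside an intrinsic noise of 1.14, a residual of -0.20 and a rho of 0.06 between alleles. Its shared noise was 0.696 without lane 3 and 0.631 with values limited at the 99th percentile of cells, both under that percentile of all genes. In Ccnd2 shared noise was 60.0, and 1.13 without the 2 cells, so that value rests on them. Cdk4-205 had an intrinsic noise of 1.26, and the gene had 0.115 with all rows summed.

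Cells with a value from 1 allele only made up 54.4% of cells with Cdkn1b, 48.2% with Ccnd2, 45.5% with Rb1, 43.8% with Cdk4-205 and 35.4% with Ccne2. Multiplying the shares of cells with each allele gives 68.8% for Cdkn1b, 91.7% for Ccnd2, 44.7% for Rb1, 43.7% for Cdk4 and 38.0% for Ccne2. Cdk2 had 14.6% where this product gives 28.1%. Ccnd1, Ccnd3 and Ccne1 were within 1.5 points of their products, and Cdk6 had 32.1% where the product gives 37.2%.

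To place the genes along G1, cells were ordered by a score over 46 genes of replication and the G1/S transition such as the Mcm genes, Pcna and Cdc6, none of them among the 10. The score is the mean standardised log2(value + 1). Scores from 2 separate parts of the list had a rho of 0.81 over the 419 cells. The score also moved with the summed histone genes (rho 0.43, 38 genes) and with the pluripotency score (rho 0.31), and their part in the results was not tested. The 139 cells of highest score (high-score cells) were set against the 140 of lowest score (low-score cells), on values scaled to a common total.

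At the low end 11 cells stood apart, with scores of -5.03 to -1.76, more than 3 interquartile ranges below the first quartile, while the other 408 lay between -1.31 and 0.67. They came from 4 lanes, and they included both cells of high Ccnd2. Their pluripotency marker sums had a median of 445, against 3450 in the other cells. Their Ccne1 had a median of 33, against 249, and their Rb1 had a median of 25, against 9. Ratios of the 10 genes along the score are therefore also given without these 11 cells, a choice made after the data were seen.

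With this score, the cyclin E genes and Cdk2 had the highest ratios of the 10 between high-score and low-score cells. Ccne2 averaged 24.5 in high-score and 14.2 in low-score cells, a ratio of 1.72 with medians of 22.3 and 11.6. Cdk2 averaged 39.05 in high-score and 26.8 in low-score cells, a ratio of 1.46. Ccne1 averaged 289.8 in high-score and 202.6 in low-score cells, a ratio of 1.43. The cells of both groups overlapped in all 3: Ccne1 ranged from 102.7 to 572 in high-score and from 8.48 to 678 in low-score cells. Over all cells rho with the score was 0.38 for Ccne1, 0.30 for Ccne2 and 0.26 for Cdk2.

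Ccnd1, Ccnd3 and Cdk4 showed smaller ratios in the same direction. Ccnd1 averaged 134.7 in high-score and 98.9 in low-score cells, a ratio of 1.36. For Cdk4 the means in these groups were 82.8 and 67.3, a ratio of 1.23, and for Ccnd3 they were 191.9 and 160.4, a ratio of 1.20. The Ccnd1 ratio was 1.68 on its 129 allele and 1.23 on its CAST allele, while Ccne1 had 1.45 on 129 and 1.41 on CAST. Ccnd3 had 1.07 on 129 and 1.32 on CAST. Cdk4 had 1.26 on 129 and 1.01 on CAST, from which its row averaged 7.37. These allele differences were not tested.

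Rb1 ran the other way. It averaged 11.4 in high-score and 20.1 in low-score cells, a ratio of 0.57 that was seen on 129 (0.61) and on CAST (0.52), with medians of 8.78 and 11.0. Its rho over all cells was -0.09, and the highest value was 49.5 among high-score cells and 190.8 among low-score cells. Ccnd2 averaged 1.68 in high-score and 9.05 in low-score cells, a ratio of 0.19 that was 0.80 without its 2 high cells. Cdkn1b averaged 4.00 in high-score and 5.76 in low-score cells, a ratio of 0.69, and Cdk6 averaged 59.1 in high-score and 72.0 in low-score cells, a ratio of 0.82. Without the 2 cells these ratios were 0.74 for Cdkn1b and 0.91 for Cdk6.

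By a limit of 1.5-fold, 1 of the 10 was higher in high-score cells (Ccne2) and 2 were lower (Ccnd2 and Rb1). Over 10920 genes, those measured less the genes of both scores, 2.24% were higher and 10.5% were lower by that limit. Without the 11 cells of very low score, 1 was higher, Ccne2 at 1.65, and 1 was lower, Rb1 at 0.59, where 1.60% and 8.12% of all genes were past the limit. Without those cells Ccnd2 was at 0.93, Cdk6 at 0.92 and Cdkn1b at 0.80, while Cdk2 was at 1.37, Ccne1 at 1.35, Ccnd1 at 1.31, Cdk4 at 1.19 and Ccnd3 at 1.17. Scored on the Mcm genes and Pcna alone, Ccnd2 was the 1 gene past the limit, with Rb1 at 0.67, and Ccne2 at 1.21 was then below Cdk2 (1.43), Ccne1 (1.41), Ccnd1 (1.32), Cdk4 (1.28) and Ccnd3. In rank order, rho of Ccne1, Ccne2, Cdk2 and Ccnd1 lay above 0.254, the 95th percentile of all genes. Without the 11 cells that percentile was lower, 0.2156, and the same number, 4, lay above it. Of these, Cdk2 at 0.2164 and Ccnd1 at 0.2224 passed it narrowly and lay below 0.254. The median ratio of the 10 was 1.21, against 1.00 over all genes, and the median rho was 0.21, against 0.02.

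**Figure D5:**
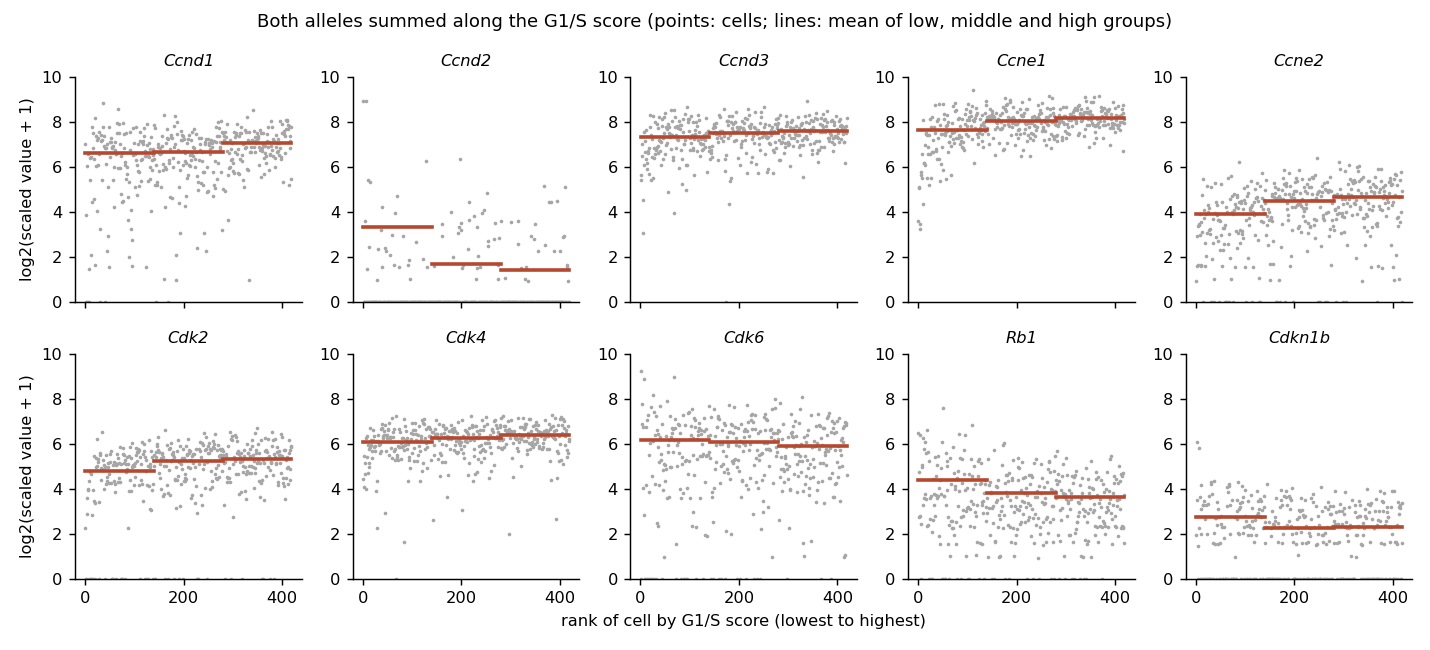
Value of each gene in 419 cells, both alleles summed and scaled, as log2(value + 1), against the rank of the cell by G1/S score from lowest to highest; red lines are the mean value of the low, middle and high groups on the same axis. Ccne1, Ccne2 and Cdk2 step up from the low to the high group, Rb1 and Ccnd2 step down, and the 2 highest Ccnd2 cells lie at the far left.

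The rank correlation with the score was also taken within each of the 5 lanes, for the 10 genes only and not for all genes. The rho of Ccne1 with the score was between 0.29 and 0.49 in the 5 lanes, that of Ccne2 between 0.12 and 0.48, that of Cdk2 between 0.13 and 0.45 and that of Ccnd1 between 0.16 and 0.33. Rb1 was between -0.16 and -0.02. Cdk6, Cdkn1b and Ccnd2 had lanes of either sign, and Ccnd3 and Cdk4 were above 0 in every lane. With all rows of a gene summed, rho over all cells was 0.39 for Ccne2, 0.39 for Cdk2 and 0.38 for Cdk4. On main rows these were 0.30, 0.26 and 0.21. For the others the summed rows gave Ccne1 0.37, Ccnd1 0.25, Ccnd3 0.22, Cdk6 0.04, Ccnd2 -0.01, Rb1 -0.10 and Cdkn1b -0.13. The rho of all genes was not taken on summed rows.

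A second score over 36 mitotic genes such as Plk1 and Cdc20 was used to order cells by transcripts of mitosis. Its rho with the first was -0.02, and it ran against the summed histone genes (rho -0.41). None of the 10 was past 1.5-fold higher at high mitotic score, where 1.73% of all genes were, and 2 were lower, where 6.06% were. Rb1 averaged 10.7 at high and 20.7 at low mitotic score, a ratio of 0.52 that was 0.56 without the 11 cells. Ccnd2 was at 0.16, and at 0.69 without its 2 high cells. The E-type cyclins were nearly level, with ratios of 1.07 for Ccne1 and 1.12 for Ccne2, and Ccnd3 was at 1.19.

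Pairs of the 10 genes were mostly weakly related across cells. Over their 45 pairs the median rho was 0.03, and 3 pairs reached 0.2 (n = 419 cells each). Ccnd3 and Ccne1 had the highest rho, 0.37, followed by Ccnd1 with its kinase partner Cdk6 at 0.34 and by Ccne1 with Ccne2 at 0.22. Over all 11001 other genes, the 95th percentile of rho was 0.215 with Ccnd3, 0.184 with Ccnd1 and 0.231 with Ccne1. Ccne1 with Ccne2 therefore lay below the 95th percentile for Ccne1, but above that for Ccne2, 0.131. The lowest was -0.19, between Ccnd3 and Rb1. All pairs share libraries, scaling and the spread in score described above.

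Genes whose values were most like those of a member were named where rho reached 0.3 over 419 cells. For Ccne1 they were Rasgrp2 (0.51), an exchange factor for Rap proteins, the atypical E2F factor E2f8 (0.50) and the bHLH factor Tcf15 (0.46). For Ccne2 they were Clspn (0.35), a mediator of the replication checkpoint, the origin licensing factor Cdc6 (0.33), both in the G1/S score, and Fbxo5 (0.33), an inhibitor of the anaphase-promoting complex. For Ccnd3 they were Utf1 (0.56), a chromatin factor of stem cells, Khdc3 (0.55) and Gcsh (0.47), a protein of glycine cleavage. For Ccnd1 they included Stmn2 (0.43), a stathmin, and lactate dehydrogenase Ldha (0.40).

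For Rb1 they were the phosphatase Ptpn14 (0.57), the p53 target Ccng1 (0.54) and the tetraspanin Cd81 (0.51). Cdk6 was most like Esyt1 (0.35), Ccnd1 (0.34) and Stmn2 (0.33), so Stmn2 was near both of this cyclin and kinase pair. Cdk2 was most like Wdr82, Nfatc2ip and the pluripotency factor Esrrb (0.32 each), and Cdk4 like Nup188 (0.31). No gene reached 0.3 with Ccnd2 or Cdkn1b, the members with most zeros. Of 11001 genes, the number that reached 0.3 ran up to 196, for Ccne1, and was 126 for Ccnd3, 52 for Ccnd1 and 1 for Cdk4.

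Of other genes of the pathway, 38 of 44 listed names had enough value to measure, and all 38 carried allele information. E2f6, a repressive E2F, was the 1 of 38 past 2-fold between alleles, at 70.4% 129, where 11.0% of all genes were. Along the G1/S score 3 of 38 were past 1.5-fold higher in high-score cells and 2 of 38 were lower, where 2.24% and 10.5% of all genes were. Without the 11 cells these counts were 3 and 1. Their median ratio was 1.08. Of 6 INK4 and other CIP/KIP inhibitors 3 could be measured, Cdkn1a at 8.93 per kb, Cdkn2b at 2.97 and Cdkn2d (p19) at 1.97. Cdkn1a averaged 10.8 in high-score and 27.3 in low-score cells, a ratio of 0.39, Cdkn2b had a ratio of 0.44 and Cdkn2d 0.88. For Cdkn2b the ratio was 0.55 without the 2 cells of high Ccnd2 and 0.71 without the 11 cells of very low score, and for Cdkn1a it was 0.41 and 0.42.

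The pocket proteins related to Rb1 were lower than Rb1 per kb, Rbl1 at 1.56 and Rbl2 at 0.903, and their ratios along the score were 0.92 and 1.17. All 10 E2F and DP factors were measured. E2f4 (48.3 per kb) and the E2F partner Tfdp1 (40.1) were the most abundant, E2f8 had the highest ratio, 2.18, with 69.0 in high-score and 31.7 in low-score cells, and E2f5 had the lowest, 0.85. E2f2, an activating E2F named here for passing the limit, had 1.62. Of 8 genes that raise or lower the activity of the kinases, none passed 1.5-fold. Cdc25a, the phosphatase that activates Cdk2, had 23.7 per kb and a ratio of 1.39, Cdk7 of the activating kinase had 17.1 per kb, and Cdc25b had the lowest ratio, 0.74.

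Of 11 measured ubiquitin ligase genes that act on G1 proteins, Skp1a (70.9 per kb) and Cks1b (40.1) were highest on main rows. Both help to mark Cdkn1b for destruction. With all rows added they had 103.2 and 45.3, and other genes of the list lay between them. Fbxo5 had a ratio of 1.65, with 60.0 in high-score and 36.5 in low-score cells, and Ambra1, which targets D-type cyclins, had 0.84. Later cyclins and their kinase also had values in these G1 cells: on main rows Ccnb2 had 61.4 per kb and Cdk1 44.5, above Ccnd1 at 29.9. This order depended on the rows used. With all rows added, Ccnb2 (61.4) and Cdk1 (63.4) lay below Ccnd1 (84.5), and Ccnb1 (124.7) and Ccna2 (94.9) above it. None of the 4 measured passed 1.5-fold along the G1/S score, with Ccna2 highest at 1.19 and Ccnb1 lowest at 0.97, and Ccnb1 had a ratio of 1.60 along the mitotic score.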

How the data were processed

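Single G1 hybrid embryonic stem cells were read by RamDA-seq, per the labels. The authors deposited 2 tables of Ensembl transcript rows by cell, 1 per allele; the unit of these deposited values was taken as a score, that is, allele counts estimated, scaled to nearly common totals and rounded by the authors, not divided by length. The submitters' processing notes name Bowtie 1.1.2 and mm10, with no role for either, and no source used here names the tool for allele assignment. Rows were joined to GENCODE vM21 (116824 of 117762 matched), and 0 columns lacked a sample. Ribosomal RNA rows took 15.3% of a cell's total. A gene is its row with most value, and genes whose row carried no allele information were left out of the background of allele shares, while sums over all rows keep such rows. Cells were 1 sample, so no p-value was made. Exact intervals are Clopper-Pearson. Named genes were all 10, at most 4 of each other list (the 2 highest levels and the highest and lowest ratio) and the 3 nearest by rho; E2f2, E2f6 and Ccnb1 along the mitotic score were named for passing a limit. A gene that this rule picks is not reported here. Members and lists were chosen with earlier results of these data known. Measures were tested on simulated data. No cell was left out and no doublet caller was run. Python 3.11.15, numpy 2.4.6, pandas 2.3.3, scipy 1.17.1 and matplotlib 3.10.9 were used.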

Additional observations from a re-analysis of the deposited data

How the results depend on the processing

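The number of genes past 2-fold between alleles was 1 with all rows summed and with no filter, 3 without lane 2 (Cdk4, Ccnd1 and Ccnd2) and 2 without lane 3 (Cdk4 and Ccnd1), and 1 without any other lane. It was 3 without the 2 cells with most Ccnd2 and 1 with the rows that carry allele information summed. The number past 1.5-fold along the G1/S score was 3, 1 with the score on Mcm genes and Pcna only, and 5 with deposited values unscaled, where Ccne1 and Cdk2 joined. It was 2 without the 2 cells with most Ccnd2, without the 11 cells of very low score, and with values limited at the 99th percentile. The number along the mitotic score was 2, and 1 without the 2 cells or without the 11 cells. The unscaled order, the limit on high values for this count, the sum over informative rows and the cells left out were chosen after seeing the data. Of the single-gene alternatives none reversed a gene past a limit: 103 of the G1/S ratios moved by less than the lane SD and 7 by more, and for 129 shares these numbers were 83 and 7. Leaving out a lane can shift a share by only part of the SD over the same lanes, unless 1 lane outweighs the rest. The lane SD of ratios is wide: Ccne2 counted as moved by less, though it fell from 1.72 to 1.21 on Mcm genes and Pcna. These counts therefore do not show that the results are stable. Summing all rows lowered the intrinsic noise of Cdk4 to 0.115, against 1.26 on its main row, and the cause was not tested. No paired analysis was possible because the cells form 1 group with no shared replicate numbers, apart from the pairing of both alleles within a cell on which shares and noise rest. Depth in reads is unknown, so values of 0 in Ccnd2 and Cdkn1b do not show absence, and lane SDs do not measure spread between cultures.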
